A study of Mus musculus with 10 samples.

Results

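The transcription factors and receptors that hold lymphocytes in a tissue were examined at the level of chromatin in iNKT cells (invariant natural killer T cells) of the thymus. Of the 94823 accessible regions measured by ATAC-seq, 149 (0.157%) overlapped the body of Zfp683, Prdm1, Bhlhe40, Nfil3, Cd69, Itgae or Itga1 or lay within 50 kb of the transcription start of 1 of these 7 genes. Zfp683 had 26 regions, Prdm1 19, Bhlhe40 8, Nfil3 12, Cd69 29, Itgae 31 and Itga1 24, and no region was assigned to more than 1 of them. Of the 149, 103 lay closer to the start of their own gene than to that of any other protein-coding gene, and 46 lay closer to another start. Regions of a gene are numbered along the chromosome, so that Zfp683 7 is the seventh region at Zfp683. Values are CPM, the transposase insertions of a region per 1000000 insertions in all regions after TMM scaling between libraries, and distances are from the annotated start of the gene (GENCODE release 21 of the mouse series, genome build GRCm38).

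Cells were sorted from the thymus of BALB/c mice and of SKG mice, which carry on the BALB/c background a hypomorphic mutation of Zap70, a kinase downstream of the T cell receptor (TCR), so that the TCR signals weakly. iNKT1 cells were CD27+ CD122+ and iNKT2 cells CD27+ CD122-. The 10 libraries formed 4 groups, with 2 libraries of iNKT1 and 3 libraries of iNKT2 cells from each genotype. The study gives an age range in weeks, that of young adult mice, and states that ages were matched within each experiment. The labels give no age and do not say whether the libraries of a group came from separate animals, so that p-values measure the spread between these libraries, which may be technical. The SKG mutation was present in every cell of the animal, and the cells compared were those that had passed selection with it.

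As background, tissue-resident lymphocytes stay where they are instead of recirculating through blood and lymph. Zfp683 encodes Hobit, and Prdm1 encodes Blimp-1, which are related zinc finger repressors that together shut down genes for tissue exit in resident T cells, thymic and liver NKT cells included. Bhlhe40 encodes a basic helix-loop-helix repressor that resident T cells use to keep their mitochondria fit, and Nfil3 encodes a basic leucine zipper factor needed for natural killer (NK) and other innate lymphoid cells. Among the receptors, CD69 (Cd69) binds the sphingosine 1-phosphate receptor S1P1 and removes it from the cell surface, CD103 (Itgae) pairs with the integrin chain beta 7 and binds E-cadherin on epithelium, and CD49a (Itga1) pairs with the chain beta 1 and binds collagen. CD122, the sorting marker, is the interleukin 2 receptor beta chain and was not among these genes.

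The libraries held 14988590 to 36342635 insertions within the regions, and within a group the libraries had a Pearson's r of 0.968 to 0.991 over regions, which are not independent replicates. Over 5 genes that mark iNKT1 cells (Tbx21, Il2rb, Ifng, Cxcr3 and Fasl) the summed level was 311 to 356 CPM in iNKT1 libraries and 76.0 to 124 CPM in iNKT2 libraries. Il2rb encodes the sorting marker CD122, so its difference followed from the sort. It had 102 to 110 CPM in iNKT1 and 29.8 to 49.7 CPM in iNKT2 libraries. The iNKT2 list had 102 to 120 CPM in iNKT1 and 121 to 189 CPM in iNKT2 libraries. Of its genes, Il17rb and Ccr7 alone were higher in every iNKT2 library than in every iNKT1 library. Gata3, Il4 and Zbtb16 overlapped, and in BALB/c Zbtb16 was lower in iNKT2 (25.2 to 37.1 CPM) than in iNKT1 (39.5 to 44.3 CPM). The NK cell list (2 of 3 genes with a region) had 5.32 to 12.8 CPM in iNKT1 and 3.52 to 5.68 CPM in iNKT2 libraries. The 4 T cell genes, chosen to mark every group, were lower in iNKT2 as well. They had 189 to 236 CPM in iNKT1 and 123 to 181 CPM in iNKT2 libraries. The 4 iNKT17 markers with a region had 0.448 to 0.899 CPM in iNKT1 and 14.8 to 26.6 CPM in iNKT2 libraries. The B cell list had no region over its 4 genes, and 2 of 4 myeloid genes had 4.30 to 7.94 CPM over all libraries. The iNKT2 libraries with replicate number 1 stood apart in both genotypes, with an iNKT1 marker sum of 102 CPM in BALB/c and 124 CPM in SKG against 76.0 to 84.8 CPM in the other 4 iNKT2 libraries. The same libraries were the highest iNKT2 libraries of their genotype for the iNKT2 list (134 and 189 CPM) and the T cell genes (159 and 181 CPM). For the iNKT17 markers they were the lowest (19.2 and 14.8 CPM). Counts of called regions are therefore given with and without both replicate 1 libraries, as are the values of regions described here that moved by over 1.5 times. The part of these libraries in the results was not tested. The contribution of cells of another type was not tested either. In bulk libraries, fewer cells with an open region and less opening in each cell cannot be told apart.

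Sequences are shown for the region of each gene where iNKT1 and iNKT2 differed strongly, because these intervals carry the subset difference described here, and for Bhlhe40 7, where the genotype effect differed between the subsets by the interaction test. No region of Prdm1 was called higher in iNKT1 in BALB/c mice. Zfp683 7, Bhlhe40 1, Nfil3 10, Itgae 26 and Bhlhe40 7 were named by a fixed rule, whereas Cd69 23 and Itga1 16 were chosen after their values were seen. Each line gives the central 300 bases of a region, 5′ to 3′ on the plus strand of GRCm38, which is a C57BL/6J genome and not that of BALB/c mice. Capitals mark matches to the transcription factor motifs searched. The intervals are chr4:134047699-134047998 (Zfp683 7), chr6:108631039-108631338 (Bhlhe40 1), chr13:53001558-53001857 (Nfil3 10), chr6:129282333-129282632 (Cd69 23), chr11:73132191-73132490 (Itgae 26), chr13:115098170-115098469 (Itga1 16) and chr6:108688397-108688696 (Bhlhe40 7).
Zfp683 7: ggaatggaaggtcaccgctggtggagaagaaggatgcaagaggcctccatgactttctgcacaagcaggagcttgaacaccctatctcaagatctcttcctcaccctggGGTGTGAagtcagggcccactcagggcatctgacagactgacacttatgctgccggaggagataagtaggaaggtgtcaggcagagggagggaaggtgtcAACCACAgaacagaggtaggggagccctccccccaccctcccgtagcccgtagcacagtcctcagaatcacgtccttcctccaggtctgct
Bhlhe40 1: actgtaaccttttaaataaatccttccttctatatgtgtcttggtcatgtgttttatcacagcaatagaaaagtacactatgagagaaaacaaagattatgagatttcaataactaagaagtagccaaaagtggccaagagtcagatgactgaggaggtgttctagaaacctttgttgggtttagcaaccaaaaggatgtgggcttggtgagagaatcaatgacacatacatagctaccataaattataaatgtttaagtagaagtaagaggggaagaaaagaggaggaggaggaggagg
Nfil3 10: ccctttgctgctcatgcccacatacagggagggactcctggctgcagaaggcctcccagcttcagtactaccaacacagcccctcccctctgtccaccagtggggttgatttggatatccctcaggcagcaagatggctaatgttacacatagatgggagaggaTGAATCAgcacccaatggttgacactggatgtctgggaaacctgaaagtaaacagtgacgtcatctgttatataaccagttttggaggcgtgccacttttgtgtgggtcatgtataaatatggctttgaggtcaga
Cd69 23: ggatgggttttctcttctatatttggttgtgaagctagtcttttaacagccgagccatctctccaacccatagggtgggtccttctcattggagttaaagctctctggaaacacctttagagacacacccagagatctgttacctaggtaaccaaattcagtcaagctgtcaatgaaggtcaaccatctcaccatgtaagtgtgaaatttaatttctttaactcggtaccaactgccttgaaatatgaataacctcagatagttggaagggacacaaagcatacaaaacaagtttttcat
Itgae 26: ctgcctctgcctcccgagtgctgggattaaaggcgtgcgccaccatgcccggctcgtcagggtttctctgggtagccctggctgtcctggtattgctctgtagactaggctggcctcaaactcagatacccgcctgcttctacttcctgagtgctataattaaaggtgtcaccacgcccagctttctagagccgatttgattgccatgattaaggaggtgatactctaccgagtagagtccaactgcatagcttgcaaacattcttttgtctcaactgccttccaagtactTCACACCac
Itga1 16: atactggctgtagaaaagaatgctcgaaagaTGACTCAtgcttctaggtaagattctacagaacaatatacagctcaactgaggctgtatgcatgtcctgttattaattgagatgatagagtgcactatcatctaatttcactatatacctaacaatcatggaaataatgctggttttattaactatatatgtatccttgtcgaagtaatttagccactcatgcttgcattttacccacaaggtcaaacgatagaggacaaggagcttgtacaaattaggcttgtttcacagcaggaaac
Bhlhe40 7: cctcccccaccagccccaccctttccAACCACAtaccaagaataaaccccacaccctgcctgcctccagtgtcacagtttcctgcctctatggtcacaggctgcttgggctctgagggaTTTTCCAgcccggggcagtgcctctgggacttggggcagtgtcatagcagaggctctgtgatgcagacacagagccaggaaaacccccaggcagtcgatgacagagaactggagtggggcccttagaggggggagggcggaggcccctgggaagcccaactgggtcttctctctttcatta
The capitals mark a T-box and a Runx match in Zfp683 7, an AP-1 match in each of Nfil3 10 and Itga1 16, a T-box match on the minus strand in Itgae 26, and a Runx and an NFAT match, both on the minus strand, in Bhlhe40 7. The windows of Bhlhe40 1 and Cd69 23 held none of the motifs searched. Of the 300 bases of Itgae 26, 205 were masked as repeats in the reference.

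The subsets were compared first in BALB/c mice. Chromatin at 6 of the 7 genes was more open in iNKT1 than in iNKT2 at 1 or more regions, led by Itga1 and Zfp683, whereas the 2 regions of Prdm1 that were called were more open in iNKT2. A region was called at an adjusted p under 0.01 (edgeR quasi-likelihood test, Benjamini-Hochberg over all 94823 regions) together with a change of at least 4-fold. Of the 149 regions, 35 were called lower in BALB/c iNKT2, where 6.36% of all regions were, and 3 were called higher, where 15.5% of all regions were. The 35 comprised 14 at Itga1, 10 at Zfp683, 4 at Nfil3, 3 at Cd69, 2 at Bhlhe40 and 2 at Itgae. The 3 higher ones were 2 at Prdm1 and 1 at Itgae. The median log2 change over the 149 regions was -0.79, against 0.06 over all regions, and it ran from -3.15 over the Itga1 regions to -0.24 over those of Prdm1.

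The same comparison in SKG mice set other libraries against each other, with the spread and the scaling estimated over all 10. There, 34 of the 149 regions were called lower in SKG iNKT2, where 6.96% of all regions were, and 5 were called higher, where 10.2% were. The lower ones lay at Itga1 (15), Zfp683 (10), Nfil3 (4), Itgae (2), Prdm1 (1), Bhlhe40 (1) and Cd69 (1). The higher ones lay at Prdm1 (2), Itgae (2) and Cd69 (1). Regions called lower in both genotypes numbered 31, which is 88.6% of the BALB/c set and 91.2% of the SKG set. Regions called higher in both numbered 2, which is 66.7% of the BALB/c set and 40.0% of the SKG set. The same shares over all regions are not given here, so these percentages cannot be read as a trait of the 7 genes. In SKG the median log2 change was -0.70 over the 149 regions and 0.14 over all regions. Leaving out both iNKT2 replicate 1 libraries gave 37 regions lower and 3 higher in BALB/c and 37 lower and 4 higher in SKG. For this setting the share of all regions is not given here. All 35 and all 34 lower regions were kept, Nfil3 8 and Nfil3 11 were gained in both genotypes and Itgae 14 in SKG, and Itgae 10 was lost from the SKG set.

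**Figure D1:**
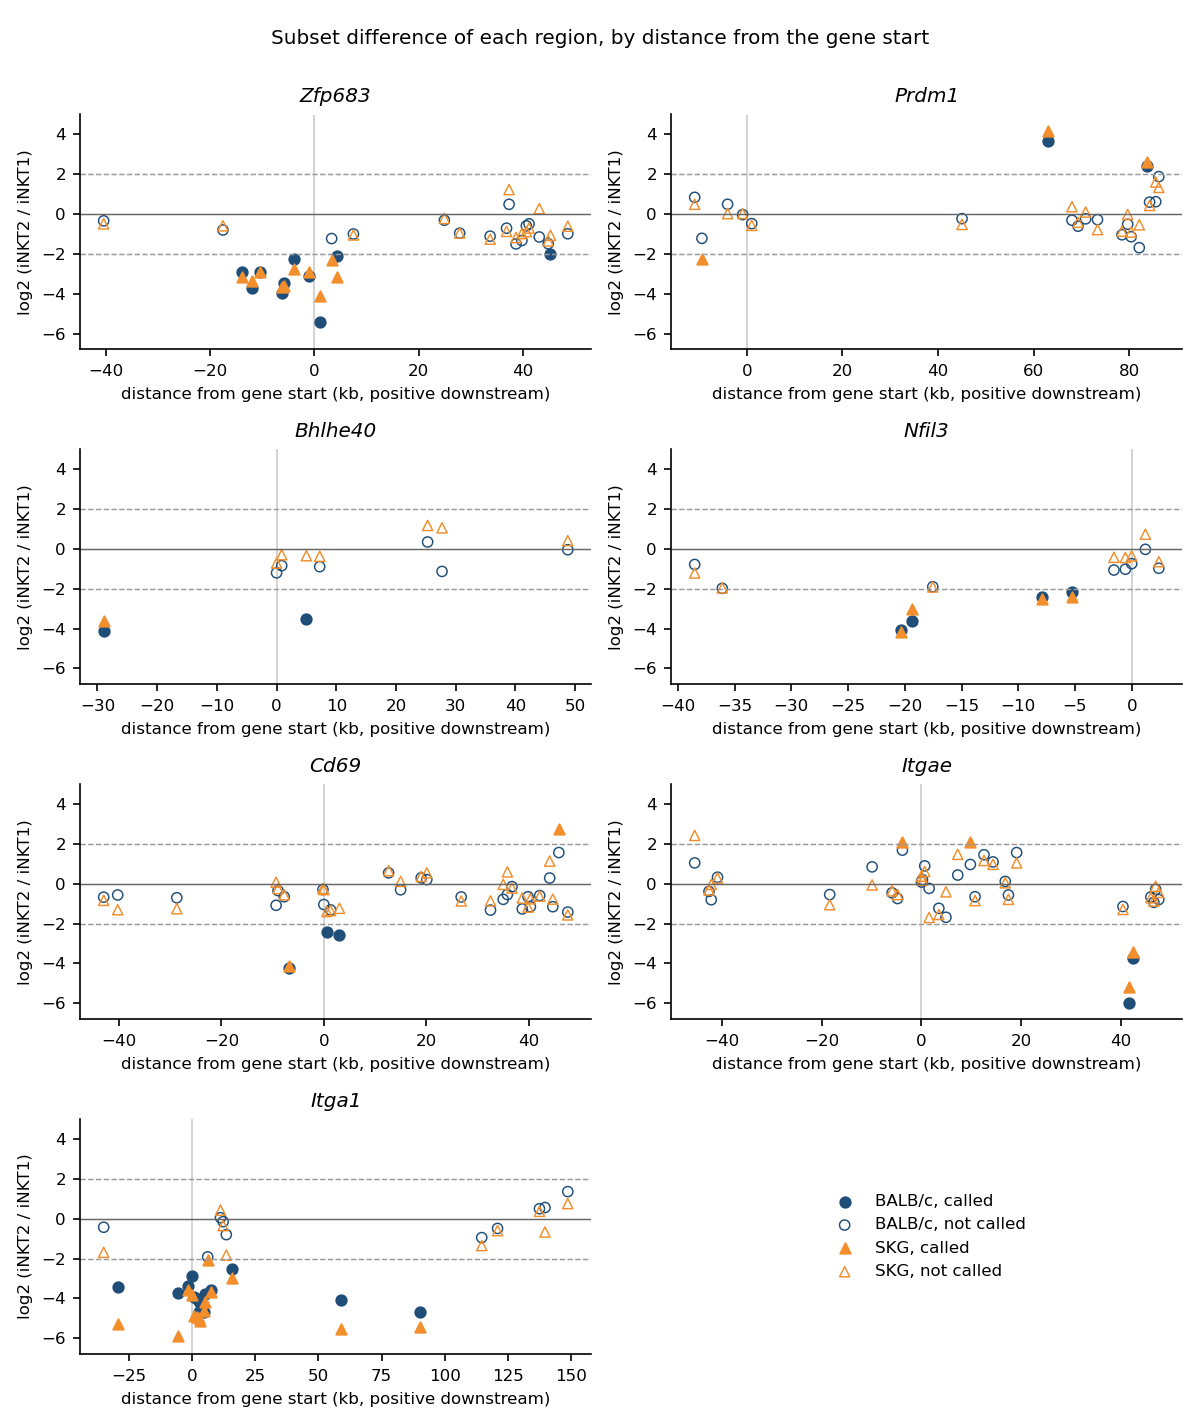
Log2 change from iNKT1 to iNKT2 (vertical axis) of 148 regions against their distance in kb from the gene start (horizontal axis), 1 panel per gene, with circles for BALB/c, triangles for SKG and filled symbols for called regions. Dashed lines mark a 4-fold change. Itgae 5 is not drawn because it held 0 insertions in BALB/c iNKT1. Filled symbols cluster from 13.9 kb upstream to 4.3 kb downstream of the Zfp683 start and around the start of Itga1, and 1 at each of Bhlhe40 and Cd69 stands apart upstream of the start in both genotypes.

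Zfp683, on the plus strand at chr4:134053838-134058996, had an unbroken run of 8 called regions, Zfp683 3 to Zfp683 10, from 13.9 kb upstream of the start to 1.1 kb inside the gene, and Zfp683 12 over a coding exon 4.3 kb inside. Zfp683 7, intergenic and 5.8 kb upstream (chr4:134047680-134048017), is the region whose sequence is shown above. It had 36 and 34 CPM in BALB/c iNKT1 and 35.1 and 35.2 CPM in SKG iNKT1. In iNKT2 it had 5.14, 2.06 and 2.31 CPM in BALB/c and 4.75, 1.70 and 1.48 CPM in SKG. Every iNKT1 library was above every iNKT2 library, and replicate 1 was the highest of the iNKT2 libraries in each genotype. The log2 change was -3.46 ± 0.371 (SE, adjusted p 1.4e-06 by edgeR) in BALB/c and -3.63 ± 0.384 (adjusted p 1.7e-06) in SKG, and without both replicate 1 libraries it was -3.98 and -4.45.

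The region nearest the Zfp683 start, Zfp683 9, lay 0.9 kb upstream and was far weaker. It had 2.78 and 3.00 CPM in BALB/c iNKT1, 3.28 and 3.34 CPM in SKG iNKT1, 0.470, 0.265 and 0.247 CPM in BALB/c iNKT2 and 0.565, 0.321 and 0.337 CPM in SKG iNKT2. Its log2 changes of -3.11 (edgeR adjusted p 2.7e-06) and -2.93 (9.3e-06) were close to those of Zfp683 7. Per kb of region, Zfp683 7 had 104 CPM in BALB/c iNKT1 and 9.38 CPM in BALB/c iNKT2. Zfp683 10, in the intron, had the most negative fitted value of the run (-5.42), but on 63 insertions in BALB/c iNKT1 and 2 in BALB/c iNKT2, and it was singled out after its values were seen. The strongest region near Zfp683 by level per kb, Zfp683 15, lay in a coding exon of the neighbouring gene Crybg2 27.9 kb downstream. It had 85.3 to 95.7 CPM in iNKT1 and 40.5 to 52.9 CPM in iNKT2 libraries of both genotypes, with log2 changes of -0.96 and -0.95 (edgeR adjusted p 9.1e-06 and 1.6e-05), below the 4-fold limit. Zfp683 25, 45.2 kb downstream, was called in BALB/c with a log2 change of -2.01, at the limit itself, and the calls of Zfp683 3, Zfp683 8, Zfp683 12 and Zfp683 25 in BALB/c were lost under at least 1 alternative.

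Prdm1, on the minus strand at chr10:44437177-44528501, was not called at its annotated start or over the starts of its coding transcripts. The coding transcripts start at 44457210 to 44458748, far inside the annotated gene. Distances for Prdm1 are from the annotated start, and Prdm1 16, the region nearest to it, lies at no coding start. The 2 regions of Prdm1 called in both genotypes were weak ones that were more open in iNKT2. Of its 19 regions, 6 passed the p limit as lower and 4 as higher in BALB/c iNKT2, and 3 and 3 did so in SKG. Prdm1 16, 0.9 kb upstream of the annotated start, had 44.6 and 46.8 CPM in BALB/c iNKT1, 51.8 and 47.8 CPM in SKG iNKT1, 36.7, 46.0 and 51.9 CPM in BALB/c iNKT2 and 39.7, 60.7 and 52.7 CPM in SKG iNKT2. The groups overlapped, with log2 changes of -0.03 ± 0.174 (edgeR adjusted p 0.90) and 0.03 ± 0.176 (0.89). Prdm1 11, which covers the starts of coding transcripts 69.3 kb inside the annotated gene, had 64.5 CPM in each BALB/c iNKT1 library and 37.5, 41.9 and 47.1 CPM in BALB/c iNKT2, a log2 change of -0.61 (edgeR adjusted p 3.2e-03). In SKG it had 69.9 and 76.0 CPM in iNKT1 and 42.4, 62.4 and 59.7 CPM in iNKT2, a change of -0.41 (4.1e-02).

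Strong regions inside the gene were lower in iNKT2 below the fold limit. Prdm1 6, in an intron 80.4 kb inside, had 36.8 and 36.3 CPM in BALB/c iNKT1 and 19.5, 15.1 and 15 CPM in BALB/c iNKT2. It changed by -1.14 on the log2 scale (edgeR adjusted p 8.1e-06), and by -0.90 in SKG (1.5e-04). Prdm1 5 had the smallest adjusted p of the locus in BALB/c, where it fell by 1.69 (2.1e-06), and its value in SKG was -0.54 (2.6e-02).

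The regions of Prdm1 called in both genotypes lay within the annotated gene, Prdm1 13 upstream of the coding starts and Prdm1 4 downstream of them. Prdm1 13, in an intron 62.9 kb inside, had 0.149 and 0.0882 CPM in BALB/c iNKT1, 0.0642 CPM in each SKG iNKT1 library, 1.85, 1.61 and 1.36 CPM in BALB/c iNKT2 and 1.13, 1.24 and 1.35 CPM in SKG iNKT2. It was nearly closed in iNKT1, with 7 insertions in the BALB/c libraries and 2 in the SKG libraries, against 153 and 85 in iNKT2. The log2 change was 3.66 ± 0.485 (edgeR adjusted p 1.1e-05) in BALB/c and 4.16 ± 0.648 (7.4e-05) in SKG. Prdm1 4, in an intron 83.7 kb inside, rose as well, by 2.42 (edgeR adjusted p 2.7e-04) and 2.59 (2.1e-03). Its call ended with quantile normalization in BALB/c (1.70, adjusted p 1.2e-02) and, in SKG, with voom (2.9e-02), with quantile normalization (7.8e-02) and without SKG iNKT1 replicate 1 (1.79, 4.3e-02). In the other direction Prdm1 18, 9.4 kb upstream, was called lower in SKG iNKT2 (log2 change -2.24, edgeR adjusted p 1.5e-04) and passed the p limit but not the fold limit in BALB/c (-1.22, 4.7e-03).

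Bhlhe40, on the plus strand at chr6:108660629-108666925, had few regions. In BALB/c 6 of the 8 passed the p limit as lower in iNKT2, and 2 of these were called. Bhlhe40 1, intergenic and 29.0 kb upstream (chr6:108630709-108631668), had 50.3 and 55.2 CPM in BALB/c iNKT1 and 40.5 and 49.8 CPM in SKG iNKT1. It had 5.52, 1.77 and 1.65 CPM in BALB/c iNKT2 and 4.10, 3.40 and 3.51 CPM in SKG iNKT2. The iNKT1 and iNKT2 libraries did not overlap, and the log2 change was -4.13 ± 0.336 (edgeR adjusted p 1.0e-07) in BALB/c and -3.61 ± 0.338 (5.2e-07) in SKG. The BALB/c value was -4.90 without both replicate 1 libraries. Bhlhe40 2, over the start, was open in every library, with 335 and 357 CPM in BALB/c iNKT1, 326 and 356 CPM in SKG iNKT1, 142, 143 and 168 CPM in BALB/c iNKT2 and 184, 213 and 231 CPM in SKG iNKT2. Its log2 changes of -1.20 ± 0.130 (edgeR adjusted p 1.6e-06) and -0.71 ± 0.130 (3.3e-04) passed the p limit and not the fold limit. Bhlhe40 4, over an untranslated part of the gene 5.0 kb inside, was called in BALB/c only (-3.51, edgeR adjusted p 1.2e-06) and is described with the genotype comparison.

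Nfil3, on the minus strand at chr13:52967209-52981073, was lower in iNKT2 at 4 called regions, all upstream of the start. Nfil3 10, intergenic and 20.3 kb upstream (chr13:53001394-53002020), had 20.8 and 17.5 CPM in BALB/c iNKT1, 20.6 and 21.7 CPM in SKG iNKT1, 1.94, 0.741 and 0.742 CPM in BALB/c iNKT2 and 1.87, 0.459 and 0.877 CPM in SKG iNKT2. The log2 changes were -4.05 ± 0.382 (edgeR adjusted p 4.0e-07) and -4.19 ± 0.396 (5.6e-07), or -4.65 and -5.06 without both replicate 1 libraries. The neighbouring Nfil3 9, 19.3 kb upstream and looked at after its values were seen, changed by -3.61 and -3.04, or by -4.47 and -4.03 without those libraries. Both regions were highest among the iNKT2 libraries in replicate 1. Nfil3 8, 17.5 kb upstream, stayed just under the fold limit with changes of -1.90 and -1.91 (edgeR adjusted p 1.2e-04 and 1.9e-04), and reached -2.37 in each genotype without both replicate 1 libraries. The region over the start, Nfil3 3, had 78.1 and 72.7 CPM in BALB/c iNKT1 and 43.1, 45.0 and 47.5 CPM in BALB/c iNKT2, a change of -0.74 ± 0.117 (edgeR adjusted p 5.9e-05). In SKG it had 90.2 and 81.6 CPM in iNKT1 and 67.1, 66.9 and 67.8 CPM in iNKT2, a change of -0.35 ± 0.118 (2.1e-02).

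Cd69, on the minus strand at chr6:129267325-129275436, had many strongly open regions with small subset differences. Cd69 25, 9.0 kb upstream and the strongest of its regions per kb, had 69.1 and 78.1 CPM in BALB/c iNKT1, 84.5 and 87.2 CPM in SKG iNKT1, 52.1, 58.7 and 63.4 CPM in BALB/c iNKT2 and 59.1, 76.4 and 82.9 CPM in SKG iNKT2. Its changes of -0.34 and -0.24 did not pass the test (edgeR adjusted p 5.6e-02 and 0.19). Cd69 21, over the start, had 46.1 and 54.9 CPM in BALB/c iNKT1 and 22.4, 25.3 and 26 CPM in BALB/c iNKT2, a change of -1.04 ± 0.131 (edgeR adjusted p 7.0e-06). In SKG the start had 50.2 and 49.7 CPM in iNKT1 and 37.8, 41.2 and 44.0 CPM in iNKT2, a change of -0.29 ± 0.133 (8.5e-02). Cd69 19, 1.3 kb inside the gene, changed by -1.31 (edgeR adjusted p 8.3e-07) in BALB/c and by -1.34 (1.1e-06) in SKG.

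The region of Cd69 that parted the subsets most was a weak one. Cd69 23, intergenic and 6.9 kb upstream (chr6:129282292-129282673), had 4.42 and 8.55 CPM in BALB/c iNKT1, 4.69 and 6.99 CPM in SKG iNKT1, 0.314, 0.397 and 0.289 CPM in BALB/c iNKT2 and 0.565, 0.184 and 0.0674 CPM in SKG iNKT2. The changes were -4.23 ± 0.426 (edgeR adjusted p 7.7e-07) and -4.15 ± 0.458 (2.6e-06), the latter -5.38 without both replicate 1 libraries. Cd69 18 and Cd69 20 were called lower in BALB/c and not in SKG. At the far end of the window Cd69 2, 45.9 kb downstream of the start, was higher in iNKT2, with 4.87 and 5.73 against 16.6, 18.4 and 12.0 CPM in BALB/c (1.57, edgeR adjusted p 6.0e-05) and 2.70 and 1.80 against 14.0, 11.9 and 19.6 CPM in SKG (2.75, 1.7e-06, called).

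Itgae, on the plus strand at chr11:73090583-73147446, had the most negative log2 change of the 7 genes in BALB/c at a single region and rises in iNKT2 elsewhere. Itgae 26, in an intron 41.6 kb inside and closer to the start of the nested gene Haspin (chr11:73132155-73132526), had 6.57 and 7.85 CPM in BALB/c iNKT1, 16.6 and 10.0 CPM in SKG iNKT1, 0.220, 0.0529 and 0.0412 CPM in BALB/c iNKT2 and 0.565, 0.184 and 0.202 CPM in SKG iNKT2. The changes were -6.01 ± 0.456 (edgeR adjusted p 5.6e-08) and -5.20 ± 0.399 (8.2e-08), with 10 and 26 insertions in the BALB/c and SKG iNKT2 groups. They were -7.03 and -6.09 without both replicate 1 libraries. Itgae 27, in the same intron, changed by -3.75 and -3.44. The start region Itgae 11 was weak and overlapped between subsets, with 4.94 to 6.30 CPM in iNKT1 and 4.53 to 7.40 CPM in iNKT2 libraries (0.09, edgeR adjusted p 0.74, in BALB/c and 0.38, 0.19, in SKG).

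The strongest region of Itgae per kb was Itgae 2, over the start of the neighbour Ncbp3 42.6 kb upstream, with 33.6 to 44.5 CPM in iNKT1 and 25.6 to 37.9 CPM in iNKT2 libraries. Inside the gene, Itgae 15, in an intron 3.5 kb from the start, had 56.5 and 48.0 CPM in BALB/c iNKT1, 56.6 and 57.2 CPM in SKG iNKT1, 24.6, 21.6 and 20.5 CPM in BALB/c iNKT2 and 20.1, 18.8 and 19.7 CPM in SKG iNKT2, changes of -1.23 and -1.54 (edgeR adjusted p 1.1e-06 and 2.1e-07). Itgae 21, in an intron 14.3 kb inside, went the other way in both genotypes, by 1.10 (2.3e-04) and 0.98 (8.1e-04). Itgae 18, in an intron 9.8 kb inside, was called higher in SKG iNKT2, with 1.54 and 2.12 CPM against 8.41, 7.07 and 7.96 CPM (2.09, edgeR adjusted p 5.1e-06), a call that ended without SKG iNKT1 replicate 1 (1.88), and it changed by 0.97 (1.3e-03) in BALB/c. Itgae 5, in an exon of the neighbour Ncbp3, held 0 insertions in BALB/c iNKT1 and 1.88, 1.69 and 0.577 CPM in BALB/c iNKT2, at least 25.9-fold higher if the group had held 3 insertions in all (edgeR adjusted p 1.2e-04). Itgae 10, 3.8 kb upstream in an untranslated part of Ncbp3, had 6.60, 2.07 and 2.29 CPM in SKG iNKT2, and its call (log2 change 2.12) ended at 1.31 without both replicate 1 libraries.

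Itga1, on the minus strand at chr13:114953096-115101964, was the locus with the largest share of called regions, 14 of 24 in BALB/c and 15 of 24 in SKG. The start itself was among them. Itga1 20, over the start, had 25.5 and 27.5 CPM in BALB/c iNKT1, 32.6 and 33.3 CPM in SKG iNKT1, 4.74, 2.83 and 3.13 CPM in BALB/c iNKT2 and 3.03, 1.75 and 1.82 CPM in SKG iNKT2. Its changes were -2.89 ± 0.229 (edgeR adjusted p 8.2e-08) and -3.85 ± 0.245 (1.9e-08). From 1.7 kb upstream to 7.6 kb inside the gene, each of the regions Itga1 12 to Itga1 21 was called lower in both genotypes except Itga1 13, called in SKG and not in BALB/c (-2.07 and -1.92). That call ended with library totals (-1.87), with the low-count filter (-1.99) and without SKG iNKT1 replicate 2 (-1.95) or SKG iNKT2 replicate 2 (-1.96).

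Itga1 16, in an intron 3.3 kb inside (chr13:115098023-115098616), had 39.3 and 37.8 CPM in BALB/c iNKT1, 41.3 and 38.7 CPM in SKG iNKT1, 2.98, 1.56 and 1.53 CPM in BALB/c iNKT2 and 2.14, 0.459 and 0.270 CPM in SKG iNKT2. The changes were -4.24 ± 0.385 (edgeR adjusted p 2.8e-07) and -5.15 ± 0.422 (1.5e-07), the latter -6.70 without both replicate 1 libraries. Itga1 7, in an intron 59.0 kb inside, had the smallest adjusted p of the locus, with 16.3 and 15.6 CPM in BALB/c iNKT1, 14.8 and 15.1 CPM in SKG iNKT1, 1.32, 0.899 and 0.577 CPM in BALB/c iNKT2 and 0.446, 0.230 and 0.202 CPM in SKG iNKT2. Its changes were -4.07 ± 0.262 (1.6e-08) and -5.52 ± 0.317 (9.9e-09). A region inside the locus but over the start of the nested gene Pelo, a ribosome rescue factor, did not follow. Itga1 11 had 55.4 to 62.4 CPM in iNKT1 and 45.4 to 85.7 CPM in iNKT2 libraries, and its changes of 0.05 and 0.43 did not pass the test (edgeR adjusted p 0.84 and 8.3e-02).

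Over the 35 regions called lower in BALB/c iNKT2, the summed level was 458 and 464 CPM in BALB/c iNKT1 and 452 and 463 CPM in SKG iNKT1. It was 59.5, 27.7 and 25.4 CPM in BALB/c iNKT2 and 50.7, 22.5 and 25.4 CPM in SKG iNKT2. The contrast that chose these regions was between the BALB/c groups, and the SKG libraries entered it only through the scaling and spread shared in the fit. Replicate 1 was the highest of the BALB/c iNKT2 libraries in 30 of the 35, and of the SKG iNKT2 libraries in 30 of the 34 regions called there.

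**Figure D2:**
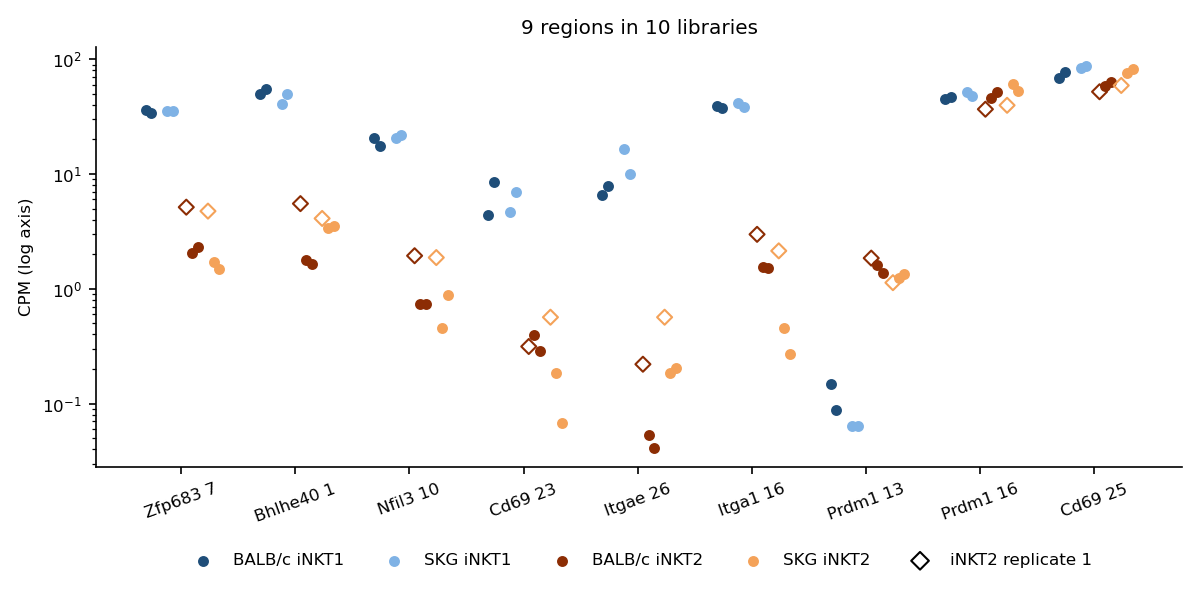
CPM on a log axis (vertical) of 9 regions (horizontal) in the 10 libraries, with 1 point per library, a color per group and open diamonds for the iNKT2 replicate 1 libraries. The first 6 regions separate iNKT1 from iNKT2 in both genotypes, as at Zfp683 7 with 34 to 36 CPM against 1.48 to 5.14 CPM, Prdm1 13 does so in the other direction, and the libraries of Prdm1 16 and Cd69 25 overlap.

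Whether the genotype changed these loci was asked next, in each subset. In iNKT1, 1 of the 149 regions was called lower in SKG, where 0.732% of all regions were, and 0 were called higher, where 0.281% were. Without the fold limit the counts stayed at 1 lower and 0 higher, where 1.42% and 0.662% of all regions passed. edgeR gave 10 higher and 12 lower regions at an unadjusted p under 0.05, and DESeq2 called 0 in either direction. For counts at an unadjusted p or by DESeq2, the share of all regions is not given here. The median log2 change of the 149 regions between SKG and BALB/c iNKT1 was 0.02. Marker levels differed between the genotypes as well, with 11.6 to 12.8 CPM over the NK cell list in BALB/c iNKT1 and 5.32 to 6.17 CPM in SKG iNKT1, and their part in these values was not tested. The region called was Prdm1 2, in an intron 85.5 kb inside Prdm1 (chr10:44442383-44442965), with 5.85 and 4.72 CPM in BALB/c iNKT1 and 1.41 and 1.22 CPM in SKG iNKT1. In iNKT2 it had 7.81, 9.13 and 7.46 CPM in BALB/c and 4.61, 4.27 and 3.03 CPM in SKG. SKG was lower in both subsets, by -2.01 ± 0.289 (edgeR adjusted p 7.5e-04) in iNKT1 and -1.02 ± 0.197 (1.5e-03) in iNKT2. The iNKT1 change sat on the fold limit, ran from -2.15 to -1.65 over the 18 alternatives and was not called in 12 of them, among them the omission of BALB/c iNKT1 replicate 1 (-1.83, adjusted p 1.7e-02), of SKG iNKT1 replicate 1 (-2.12, 1.6e-02) or of SKG iNKT1 replicate 2 (-1.90, 2.2e-02).

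In iNKT2, 2 regions were called lower in SKG, where 4.73% of all regions were, and 0 were called higher, where 0.252% were. Here the iNKT17 markers had 19.2 to 26.6 CPM in BALB/c and 14.8 to 16.9 CPM in SKG libraries. Il17a (6.59 to 9.76 against 1.13 to 2.63 CPM) and Il1r1 were lower in SKG. Ccr6 was higher (0.66 to 1.08 against 2.38 to 3.03 CPM), and Il23r overlapped. The iNKT2 list had 121 to 134 and 147 to 189 CPM. Ccr7 (22.5 to 30.6 against 38.9 to 55 CPM) and Il17rb were higher in SKG, and Zbtb16, Il4 and Gata3 overlapped. The part of these markers in the genotype differences was not tested. edgeR gave 39 higher and 20 lower regions at an unadjusted p under 0.05, and DESeq2 called 0 higher and 3 lower. The shares of all regions are not given for these counts, which cannot be read as particular to the 7 genes. Prdm1 1, over a coding exon 86.2 kb inside Prdm1, had 2.89, 2.91 and 3.01 CPM in BALB/c iNKT2 and 0.743, 0.551 and 0.337 CPM in SKG iNKT2, a change of -2.34 ± 0.335 (edgeR adjusted p 1.3e-04). In iNKT1 it had 1.02 and 0.529 CPM in BALB/c and 0.193 and 0.257 CPM in SKG (-1.80, 9.1e-02). Itga1 22, 5.5 kb upstream of Itga1, had 1.88, 0.688 and 1.32 CPM in BALB/c iNKT2 and 0.238, 0 and 0.135 CPM in SKG iNKT2, on 118 and 10 insertions. Its change of -3.15 ± 0.551 (edgeR adjusted p 6.8e-04) was not called with voom (1.5e-02) or voom with quantile normalization (2.6e-02). In iNKT1 it had 17.4 and 16.4 CPM in BALB/c and 7.13 and 10.3 CPM in SKG (-0.95, adjusted p 0.15). Without both replicate 1 libraries the lower regions numbered 4, the same 2 (Itga1 22 at -4.02) with Itga1 16 (-2.03, adjusted p 1.6e-05) and Itgae 5 (-2.82, 4.8e-03). With replicate numbers as pairs in a block, Itgae 5 was called as well (-2.32, adjusted p 5.0e-03), against -2.17 (1.6e-02) without the block.

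At smaller sizes of change, SKG iNKT2 cells were more open than BALB/c iNKT2 cells at the starts of 3 of the genes. Without the fold limit 12 of the 149 regions were higher in SKG iNKT2, where 4.02% of all regions were, and 6 were lower, where 10.1% were. The higher ones were Bhlhe40 2, 4 and 7, Nfil3 2, 3 and 4, Prdm1 5 and 7, Cd69 21 and 26, Zfp683 23 and Itgae 21, and the lower ones were Prdm1 1 and 2 and Itga1 1, 7, 9 and 22. With the replicate block 13 were higher and 10 lower, by the addition of Zfp683 26 among the higher and of Prdm1 18, Cd69 27, Itgae 5 and Itga1 23 among the lower. Without both replicate 1 libraries 14 were higher and 12 lower, and Nfil3 4 (0.54, edgeR adjusted p 2.9e-02) and Bhlhe40 4 (1.13, 1.6e-02) no longer passed. The shares of all regions with the block or without these libraries are not given here. Over the start, the 3 libraries of BALB/c and of SKG did not overlap at Bhlhe40 2 (0.47 ± 0.118, edgeR adjusted p 8.7e-03), Nfil3 3 (0.57 ± 0.106, 1.1e-03) or Cd69 21 (0.74 ± 0.120, 3.9e-04). These 3 were taken because they passed, and the start regions of the other genes did not pass. How many of all gene starts passed or did not overlap is not given here, so the rises cannot be read as particular to these genes. At each of the 3 starts the SKG iNKT2 libraries lay between those of BALB/c iNKT2 and those of iNKT1 of either genotype. The same starts changed by -0.02, 0.19 and -0.01 between the genotypes in iNKT1 (adjusted p 0.97, 0.53 and 0.98). The largest of these rises outside Bhlhe40 were at Nfil3 2 (1.33, edgeR adjusted p 7.6e-03) and at Prdm1 5, in an intron 82.1 kb inside Prdm1, with 3.17, 2.91 and 2.64 CPM in BALB/c and 7.16, 6.98 and 5.6 CPM in SKG (1.18 ± 0.178, 1.9e-04). Prdm1 5 had 9.06 to 10.3 CPM in the iNKT1 libraries.

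Whether the genotype effect differed between the subsets was tested as an interaction, the SKG minus BALB/c change in iNKT2 less that in iNKT1. Of the 149 regions, 2 were called with a positive interaction, where 0.189% of all regions were, and 0 with a negative one, where 0.341% were. Without the fold limit 3 were positive, where 0.446% were, and 0 negative, where 0.479% were. edgeR gave 21 positive and 9 negative regions at an unadjusted p under 0.05, and DESeq2 called 2 positive and 0 negative, again without the shares of all regions. Bhlhe40 4 had 5.88 and 7.45 CPM in BALB/c iNKT1 and 1.99 and 2.89 CPM in SKG iNKT1. It had 0.282, 0.846 and 0.577 CPM in BALB/c iNKT2 and 2.35, 1.15 and 2.29 CPM in SKG iNKT2. SKG was higher in iNKT2 (1.73, edgeR adjusted p 3.1e-03), the value in iNKT1 was -1.44 and did not pass (4.2e-02), the interaction was 3.18 ± 0.538 (5.1e-03), and the subsets differed by -3.51 in BALB/c and by -0.34 in SKG. Without both replicate 1 libraries the iNKT2 value was 1.13 (1.6e-02) and did not pass, the iNKT1 value was -1.43 (3.1e-04), and the interaction was 2.56 (1.8e-04).

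Bhlhe40 7, intergenic and 27.7 kb downstream of the start, was the other region called. It had 6.39 and 11.6 CPM in BALB/c iNKT1, 3.34 and 4.81 CPM in SKG iNKT1, 3.14, 5.53 and 3.46 CPM in BALB/c iNKT2 and 7.52, 8.40 and 9.78 CPM in SKG iNKT2. SKG was higher in iNKT2 (1.06, edgeR adjusted p 6.8e-03) and did not pass in iNKT1 (-1.13, 6.1e-02). The subset change was -1.13 in BALB/c (edgeR adjusted p 2.4e-03) and 1.06 in SKG (9.8e-03), and the interaction 2.19 ± 0.418 (9.6e-03). Both calls depended on single libraries. The interaction of Bhlhe40 4 was not called in 7 of 17 alternatives and that of Bhlhe40 7 in 11 of 17, including, for both, library totals without TMM factors (adjusted p 1.1e-02 and 1.8e-02) and the omission of each iNKT1 library (2.1e-02 to 4.6e-02 and 1.2e-02 to 7.8e-02). Omitting BALB/c iNKT2 replicate 3 (1.6e-02 and 2.9e-02) or SKG iNKT2 replicate 3 (1.4e-02 and 2.4e-02) ended both calls too, and omitting SKG iNKT2 replicate 2 ended that of Bhlhe40 7 (1.5e-02). Cd69 26, 9.3 kb upstream of Cd69, passed the p limit but not the fold limit, with 35.5 and 38 CPM in BALB/c iNKT1, 23.2 and 25.7 CPM in SKG iNKT1, 19.2, 16.9 and 16 CPM in BALB/c iNKT2 and 24.2, 23.5 and 30.2 CPM in SKG iNKT2 (interaction 1.16 ± 0.213, edgeR adjusted p 7.9e-03). Without both replicate 1 libraries 1 negative interaction appeared, Itga1 16 (-2.10, 1.3e-04).

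**Figure D3:**
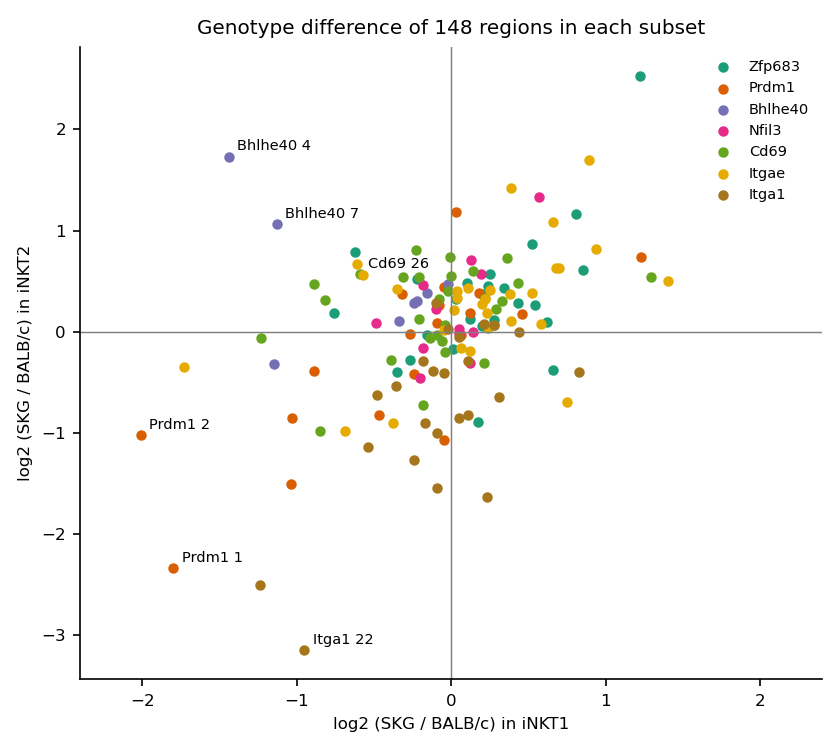
Log2 change from BALB/c to SKG in iNKT2 (vertical axis) against that in iNKT1 (horizontal axis) for 148 regions, with 1 point per region and a color per gene, Itgae 5 not drawn. Bhlhe40 4 and Bhlhe40 7 lie in the upper left at -1.44 and 1.73 and at -1.13 and 1.06, Prdm1 1 and Prdm1 2 in the lower left, and most other points near 0. The point at the top right is Zfp683 10, which held 2 and 11 insertions in the BALB/c and SKG iNKT2 groups.

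Because single regions can be weak, insertions were also summed over all regions of a gene, for the 7 genes and for the 18111 protein-coding genes with regions, and tested in the same way. With TMM scaling, the sums fell from iNKT1 to iNKT2 at all 7 genes in BALB/c, where 40.9% of all loci were lower at an adjusted p under 0.01. In SKG they fell at 6 genes, where 20.2% of all loci were lower, with Prdm1 as the exception (-0.24, edgeR adjusted p 7.1e-02). Itga1 had 320 and 324 CPM in BALB/c iNKT1, 316 and 317 CPM in SKG iNKT1, 98, 107 and 114 CPM in BALB/c iNKT2 and 92.1, 120 and 114 CPM in SKG iNKT2. Its changes of -1.60 ± 0.110 (3.0e-06) and -1.55 ± 0.110 (5.6e-06) were the most negative of the 7 in each genotype. Next in BALB/c came Nfil3 (-1.35), Zfp683 (-1.30) and Bhlhe40 (-1.24), which lie within 1 standard error of their neighbors in this order, then Cd69 and Itgae (-0.62 each), and last Prdm1 (-0.35 ± 0.0973, 8.3e-03). Over all loci the median was -0.25 for BALB/c and -0.11 for SKG. Library totals in place of TMM scaling moved the median of all regions from 0.06 to 0.34 in BALB/c. In SKG it moved from 0.14 to 0.32. The smaller falls, as at Prdm1, Cd69 and Itgae, therefore depend on the scaling in size and may depend on it in passing the test. Which of the 7 sums passed between subsets with library totals is not given here.

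The sums of 3 genes differed between the genotypes. In iNKT1 0 loci passed, where 0.652% of all loci did, and 0 had an unadjusted p under 0.05 (edgeR), with 0 also by DESeq2. In iNKT2 3 were higher in SKG, where 12.0% of all loci were, and the median change over all loci was itself 0.17. Nfil3 had 79.9, 72.3 and 74.5 CPM in BALB/c iNKT2 and 116, 102 and 99.6 CPM in SKG iNKT2, a change of 0.49 ± 0.0828 (edgeR adjusted p 2.5e-03). Bhlhe40 had 187, 193 and 227 CPM against 244, 279 and 296 CPM (0.43 ± 0.0959, 7.3e-03), and Cd69 had 314, 344 and 331 CPM against 375, 408 and 434 CPM (0.30 ± 0.0684, 8.4e-03). The libraries of the genotypes did not overlap at any of the 3, which were taken because they passed. Itgae (0.24, 8.4e-02), Prdm1 (0.13, 0.27), Zfp683 (0.11, 0.58) and Itga1 (0.03, 0.83) did not pass.

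The rises in SKG iNKT2 were small and depended on single libraries and on scaling. The call at Nfil3 was lost without BALB/c iNKT1 replicate 1 (adjusted p 1.4e-02), BALB/c iNKT2 replicate 2 (3.5e-02) or BALB/c iNKT2 replicate 3 (2.7e-02). Those at Bhlhe40 and Cd69 were lost on leaving out any 1 library except SKG iNKT2 replicate 1, with adjusted p of up to 4.8e-02 and 5.0e-02. With library totals in place of TMM scaling none of the 3 passed (5.2e-02 for Nfil3, 1.8e-02 for Bhlhe40 and 8.7e-02 for Cd69, changes of 0.36, 0.30 and 0.16), and all 3 passed without both replicate 1 libraries (0.43, 0.42 and 0.29). That scaling moves the median of all regions between SKG and BALB/c iNKT2 from 0.01 to -0.12. In the interaction of the sums 0 of 7 genes passed, where 0.508% of all loci did, with 3 at an unadjusted p under 0.05 (edgeR) and 0 passing by DESeq2. Without both replicate 1 libraries 2 passed, Bhlhe40 (0.52, adjusted p 3.1e-05) and Nfil3 (0.35, 4.5e-03).

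**Figure D4:**
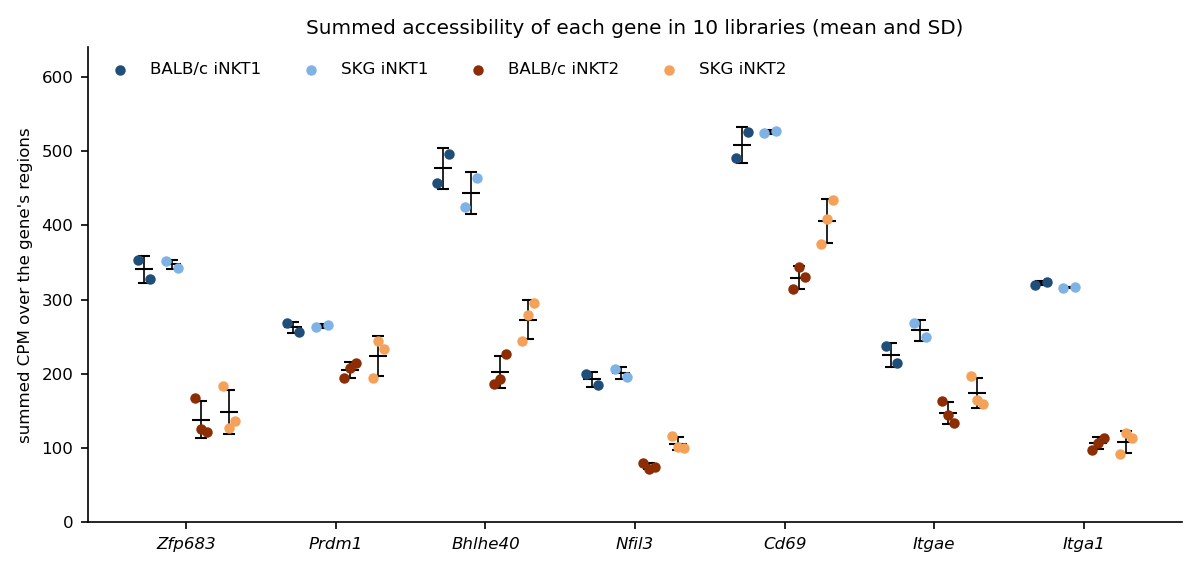
Summed CPM over the regions of each gene (vertical axis, from 0) for the 7 genes (horizontal axis), with 1 point per library in 4 groups and bars for mean and SD (n = 2 in iNKT1, n = 3 in iNKT2). The iNKT1 libraries lie above the iNKT2 libraries at every gene, as at Itga1 with 316 to 324 CPM against 92.1 to 120 CPM, and the SKG iNKT2 libraries lie above those of BALB/c iNKT2 at Bhlhe40, Nfil3 and Cd69.

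Levels were compared between genes only per kb of covered region. In BALB/c iNKT1, Bhlhe40 had the highest density at 65.5 CPM per kb, followed by Cd69 (34.4), Itga1 (32.8), Nfil3 (31.0), Zfp683 (30.9), Prdm1 (29.8) and Itgae (18.4). The means of Itga1, Nfil3, Zfp683 and Prdm1 are close and their order is not firm. In BALB/c iNKT2 the density was 27.8 at Bhlhe40, 23.3 at Prdm1, 22.3 at Cd69 and 10.8 to 12.6 at the other four, so that Prdm1 came next to Bhlhe40 there. In SKG iNKT2 it was 37.5 at Bhlhe40, 27.5 at Cd69, 25.5 at Prdm1, 17.1 at Nfil3, 14.2 at Itgae, 13.5 at Zfp683 and 11.1 at Itga1.

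Other genes of tissue residency were read from a list of 13, which holds the integrin partners Itgb7 and Itgb1, the chemokine receptor Cxcr6, the regulators of G protein signalling Rgs1 and Rgs2, Crtam, Xcl1, P2rx7, the transcription factors Runx3 and Ahr, the receptors Tgfbr1 and Tgfbr2 for transforming growth factor beta, and Cdh1, which encodes E-cadherin. Their sums were lower in BALB/c iNKT2 at 9 of 13 genes, beside 40.9% of all loci, and higher at 0, and in SKG lower at 7 of 13, beside 20.2%, and higher at 0. With library totals in place of TMM scaling, 5 and 4 were lower. Itgb1, the partner of CD49a, changed by -1.76 ± 0.107 (edgeR adjusted p 1.6e-06) in BALB/c and -1.51 in SKG, Xcl1 by -1.75 and -1.50 and Runx3 by -1.33 and -1.14. Ahr (-0.14 and 0.20), Crtam (-0.19 and 0.17), P2rx7 (-0.15 and 0.36) and Rgs2 (-0.35 and -0.41) did not pass in either genotype. Of 261 regions on the list, 50 were called lower and 16 higher in BALB/c iNKT2, beside 6.36% and 15.5% of all regions, and 36 and 24 in SKG iNKT2, beside 6.96% and 10.2%. Between the genotypes 0 sums passed in iNKT1 and 1 in iNKT2, where 12.0% of all loci were higher. It was Itgb7, the partner of CD103, at 0.43 (1.3e-03), or 0.30 (4.7e-02) with library totals. In SKG iNKT2 6 were higher without both replicate 1 libraries. Over the 261 regions the median log2 change was -0.74 for BALB/c and -0.50 for SKG, beside -0.79 and -0.70 over the 149.

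Genes of the opposite program, exit from the tissue, are given for 7 genes, with the sphingosine 1-phosphate receptors S1pr1, S1pr4 and S1pr5, the factors Klf2 and Klf3, the homing receptor Ccr7, and Itgb2. Their sums were lower in BALB/c iNKT2 at 5 of 7 genes, beside 40.9% of all loci, and higher at 0. They were lower in SKG iNKT2 at 6, beside 20.2% of all loci, and higher at 1, Ccr7 (0.97, edgeR adjusted p 1.9e-03). Klf2, which drives S1pr1 transcription, changed by -1.15 in BALB/c and -1.24 in SKG. S1pr1, the receptor that CD69 removes from the surface, was higher in SKG than in BALB/c iNKT1 (0.75 ± 0.107, edgeR adjusted p 6.8e-03) and did not pass in iNKT2 (-0.03, 0.78). Klf2 changed by 0.44 between the genotypes in iNKT1 and did not pass (edgeR adjusted p 1.2e-02). With DESeq2, and also without both iNKT2 replicate 1 libraries, Klf2, S1pr1 and S1pr4 passed as higher in SKG iNKT1. In each of those settings 5 sums were higher in SKG iNKT2. edgeR on all libraries gave 4 sums higher in SKG iNKT2, where 12.0% of all loci were, at Klf2 (0.35), Klf3 (0.53), S1pr4 (0.34) and S1pr5 (0.27). With library totals Klf3 alone passed (0.40, edgeR adjusted p 6.8e-03), and the others had 0.21, 0.21 and 0.14. With that scaling 4 sums were lower and 1 higher from iNKT1 to iNKT2 in each genotype, the higher one being S1pr1 in BALB/c and Ccr7 in SKG.

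The central 300 bases of each region were searched on both strands for short motifs, none of which contains another. The values are descriptions of letters, with no test. Among the 35 regions higher in BALB/c iNKT1, AP-1 (TGANTCA) was found in 7 (20%), the ETS string ACAGGAAG in 5 (14.3%) and T-box (GGTGTGA) in 4 (11.4%). Over all 94816 regions searched these strings occurred in 10.6%, 9.64% and 5.48%, and in the other 114 regions of the 7 genes in 7.89%, 2.63% and 3.51%. Runx (TGTGGTT) was found in 17.1% of the 35 and 13.2% of all, and NFAT (TGGAAAA) in 1 of the 35 (2.86%), 14 of the other 114 (12.3%) and 6.54% of all. Tcf/Lef (CTTTGAT) was found in 5.71% of the 35 and 5.74% of all regions, and the E-box CACGTG in 8.57% and 6.86%. The Blimp-1 string GAAAGTG was found in 0 of the 35, in 5 of the other 114 (4.39%) and in 6.15% of all, Egr (GCGTGGG) in 0, 5 and 3.68%, and the Nfil3 string TTACGTAA in none of the 149 and in 0.109% of all.

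The genes whose sums ran most alike over the 10 libraries were named for each of the 7, with Pearson's r between log2 sums over genes that share no region with it. They were Ccnq, Ahdc1 and Tmprss13 for Zfp683 (r of 0.999 for the first), Vim, Trdmt1 and Ppp2cb for Prdm1 (0.987), and Ghrl, Asprv1 and Lrrc8d for Bhlhe40. For Nfil3 they were Ddx39, Adgre5 and Hc, for Cd69 Dcaf17, Mettl8 and Lmod3, for Itgae Ccdc85b, Fosl1 and Cfl1, and for Itga1 Gdpd5, Selenos and Serpinb9b. These r values, 0.983 to 0.999, describe 10 libraries that fall into 4 groups and are picked from 18103 to 18110 genes.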

How the data were processed

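ATAC-seq maps open chromatin by the sites at which a transposase inserts sequencing adapters. According to the study's methods, reads were first aligned by the authors uniquely to mm10 with Bowtie 1.0, and those left unaligned were trimmed with Trim Galore and aligned in a further round. The authors then removed duplicates with Picard, called summits with MACS2 from short fragments, merged expanded summits over all replicates, left out chromosome Y and blacklisted intervals and counted insertions. The deposited table holds counts per region and library, raw whole numbers although it is labelled normalized. Regions were 300 to 7709 bp wide (median 343 bp), and those of the 7 genes 300 to 3103 bp. Most were narrower than the uniform size to which the methods say summits were expanded, and the reason for this mismatch is not known.

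The quasi-likelihood F test of edgeR 4.0.16 (R 4.3.3) was applied with TMM scaling over all regions and 1 mean per group of the 10 libraries, and p-values were adjusted over all 94823 regions. The standard error of a log2 change was derived from its F statistic. Gene sums were fitted likewise over 18111 protein-coding genes with the same window. The scripts were tested on simulated data. Alternatives were library totals without TMM factors, DESeq2 1.42.0, voom with limma 3.58.1 with and without quantile normalization, exclusion of regions under the lower quartile of mean counts (36.2), only the groups compared, a replicate block, adjusted p under 0.05 with 2-fold, a 20 kb window, own start nearest and the omission of each library. The omission of both iNKT2 replicate 1 libraries, and the other scalings of the list sums, were added after seeing the data. Where 1 library of a group of 2 was left, it took its spread from the other groups. The floor and other counting limits cover counting error only.

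The rule for named regions took, per gene, the region over or nearest the start, the region of smallest adjusted p in each comparison of groups, the region of highest mean level per kb, and every region called in the interaction. Other regions named were chosen after their values were seen. The genes, the lists and the tests were chosen with earlier results of these data known. Replicate numbers were checked as pairs by correlating deviations from group means. Between BALB/c and SKG iNKT2 the same numbers gave r of 0.517, 0.181 and 0.224, all over 0.1. Unlike numbers gave 0.201 (BALB/c replicate 2 with SKG replicate 3) and 0.308 (BALB/c replicate 3 with SKG replicate 2). The values thus set replicate 1 apart and do not show that numbers 2 and 3 are matched pairs. The pairing comes from the data and not from the labels. The block was fitted over all 10 libraries, so it treated equal numbers as matched in every comparison. In the other comparisons r ran from -0.026 to 0.161, with 0.161 and 0.119 between BALB/c iNKT1 and BALB/c iNKT2, also over 0.1. Sequences were read from the RefSeq GRCm38 genome. Protein sequences were not used here. Some genes of the lists are not reported here.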

Additional observations from a re-analysis of the deposited data

Results flagged for a closer look

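For 3 regions the genotype effect differed between iNKT1 and iNKT2 by the interaction test of edgeR. They were Bhlhe40 4 (interaction 3.18 on the log2 scale, adjusted p 5.1e-03), Bhlhe40 7 (2.19, 9.6e-03) and Cd69 26 (1.16, 7.9e-03). SKG was higher than BALB/c in iNKT2 at all 3, by 1.73 (3.1e-03), 1.06 (6.8e-03) and 0.57 (5.5e-03). The iNKT1 values of -1.44 (4.2e-02), -1.13 (6.1e-02) and -0.59 (5.1e-02) did not pass. Without both iNKT2 replicate 1 libraries the 3 interactions were 2.56, 2.06 and 1.24, and the iNKT2 value of Bhlhe40 4 no longer passed (1.13, 1.6e-02). Groups of 2 or 3 libraries were too small for a search for single outlying libraries.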

How the results depend on the processing

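Of 900 log2 changes of named regions recomputed under the alternatives, 862 kept direction and side of the threshold, 27 lost and 11 gained a pass, and 0 reversed. Of the 38 regions called between subsets in BALB/c and 39 in SKG, 6 and 6 were lost under at least 1 alternative. At an adjusted p under 0.05 with 2-fold, the counts higher and lower were 9 and 63 between the BALB/c subsets, 12 and 55 between the SKG subsets and 6 and 11 between genotypes in iNKT2, with 3 lower in iNKT1 and 5 positive interactions. Regions higher in SKG iNKT2 than SKG iNKT1 numbered 3 with voom, 3 with quantile normalization and 2 to 5 without each library. The region lower in SKG iNKT1 was lost (count 0) with DESeq2, voom, quantile normalization, only the groups compared and both iNKT2 replicate 1 libraries left out, and the count was 0 to 1 without each library. In SKG against BALB/c iNKT2, quantile normalization gave 3 higher and 1 lower, voom 1 lower and the omission of both replicate 1 libraries 4 lower, with 0 to 1 higher and 2 to 6 lower without each library. Positive interactions numbered 0 with library totals, 1 with voom, 1 with quantile normalization, 1 with the low-count filter, 1 with the 20 kb window and 0 to 2 without each library. Negative interactions numbered 0 to 1 without each library and 1 without both replicate 1 libraries. Of 315 gene sums, 254 kept their result, 48 lost a pass and 13 reversed, all of the latter between genotypes in iNKT2 and none past the threshold. They were Zfp683 (-0.03 with library totals, -0.31 in the 20 kb window, and -0.07 to 0.26 without each library), Prdm1 (-0.01 with library totals) and Itga1 (-0.11 with library totals, 0 with DESeq2, and -0.04 to 0.14 without each library). Sums higher in SKG iNKT2 numbered 0 with library totals and 0 to 3 without each library, and 2 interactions of sums passed without both replicate 1 libraries. Library totals moved the median of all regions to 0.34 and 0.32 between subsets. With the replicate block 34 regions were lower and 3 higher between the BALB/c subsets, where Zfp683 12 (-1.88) and Zfp683 25 (-1.84) were no longer 4-fold and Itga1 13 was called (-2.04), and between genotypes in iNKT2 3 were lower and 0 higher. The block changed no other call of the 149 regions or 7 sums. The cause of these changes was not tested. The 3 regions called between genotypes held 41 (Prdm1 2), 42 (Prdm1 1) and 10 (Itga1 22) insertions in the SKG group, and such depth limits how well their folds are known.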
